A study of Mus musculus with 14 samples.

Results

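This account describes the p53 binding sites that lie close to another p53 binding site in the genome of mouse embryo fibroblasts (MEFs) treated with doxorubicin. A site was taken as clustered when the nearest other distinct site on the same chromosome stood at most 10000 bp away by position. This rule was met by 1094 of the 4785 distinct sites in the deposited list, 22.9% (exact Clopper-Pearson 95% interval 21.7 to 24.1%). The other 3691 sites are called isolated below. The rule used positions only, so the enrichment, the rank and the number of lines on which a site was listed did not enter the choice, while every statement on spacing is a description of the choice itself.

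The list came from chromatin immunoprecipitation followed by sequencing (ChIP-seq), which recovers DNA crosslinked to a protein. All 4 libraries behind it were made from MEFs of strain 129/Sv exposed to doxorubicin at 0.2 µg/ml for 6 h. Wild-type cells gave 1 library with the p53 antibody CM-5 and 1 background library without antibody, and p53-/- cells gave the same pair. No untreated cells entered the ChIP, the labels do not say which part of the p53 gene is missing in the p53-/- cells, and the labels name the same single list for all 4 libraries. The list therefore holds 1 value per site with no replicate. Sites of 1 list share their libraries and are not replicates of a condition, so differences between sets of sites are given as counts, shares and medians, and no p-value was computed. The intervals printed beside shares cover counting error only, and neighbouring sites are not independent. The ChIP depth behind a site is not known from the list.

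p53 is a transcription factor that is stabilised after DNA damage and binds as a tetramer to a response element built from a pair of similar half-sites. Doxorubicin, a topoisomerase II poison, breaks DNA and activates p53. Many p53 target genes carry more than 1 response element in their promoter or first intron, and such elements can contribute separately to the response. Per the submitters' processing notes the positions are on the mm9 build, and 54 of them lie beyond the last gene of their chromosome in the GRCm38 annotation at hand. For that reason no site was assigned to a gene and no DNA sequence is shown, and sites are named by chromosome and mm9 position.

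The cells were checked in the RNA libraries of the same series, on the deposited scale, which is close to log2. Of 12 fibroblast markers, 7 stood above the 90th percentile of the 20207 listed genes on average over the 3 doxorubicin-treated wild-type RNA libraries. The collagen gene Col1a1 was highest, at percentile 99.5, and the receptor gene Pdgfra lowest, at 49.5. Mean percentiles ran from 31.2 to 84.5 for 4 blood and macrophage markers, from 20.6 to 43.6 for 3 endothelial markers and from 28.3 to 73.7 for 4 epithelial markers. The part of such cells in the ChIP list was not tested. Trp53, the gene encoding p53, had deposited values of 9.31, 8.95 and 9.99 in treated wild-type and of 9.31 and 9.96 in treated p53-/- RNA libraries. These groups overlapped, and reads from the 3' end of a transcript check nothing about a deletion elsewhere. Cdkn1a, a p53 target gene that encodes the cell-cycle inhibitor p21, had 19.4, 19.7 and 19.2 in treated wild-type against 10.4 and 9.98 in treated p53-/- libraries, with no overlap.

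The clustered sites formed 485 clusters, a cluster being a run of sites whose neighbouring positions were at most 10000 bp apart. Most were pairs. There were 401 clusters of 2 sites, which held 73.3% of the clustered sites, 70 clusters of 3 and 10 clusters of 4. Beyond these stood 1 cluster each of 5, 6, 15 and 16 sites. The median cluster spanned 684 bp and the longest 15403 bp.

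Spacing inside clusters was mostly under 1000 bp. Neighbouring sites stood between 69 and 9998 bp apart, with a median of 430 bp and quartiles of 240 and 3031 bp. Of the 609 neighbouring pairs, 319 (52.4%) were at most 500 bp apart and 374 (61.4%) at most 1000 bp. The next 1000 bp held 51 pairs, and each further step of 1000 bp held between 18 and 32. At most 200 bp lay between the sites of 112 pairs (18.4%). Whether sites so close to each other are separate binding events was not tested. Merging sites within 500 bp of each other left 547 clustered sites in 258 clusters. Isolated sites had a median distance of 127147 bp to the nearest other site. In the plot of nearest distances, the clustered sites thus form a peak of their own below 1000 bp and a low flank that joins the broad peak of the isolated sites at the limit.

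**Figure D1:**
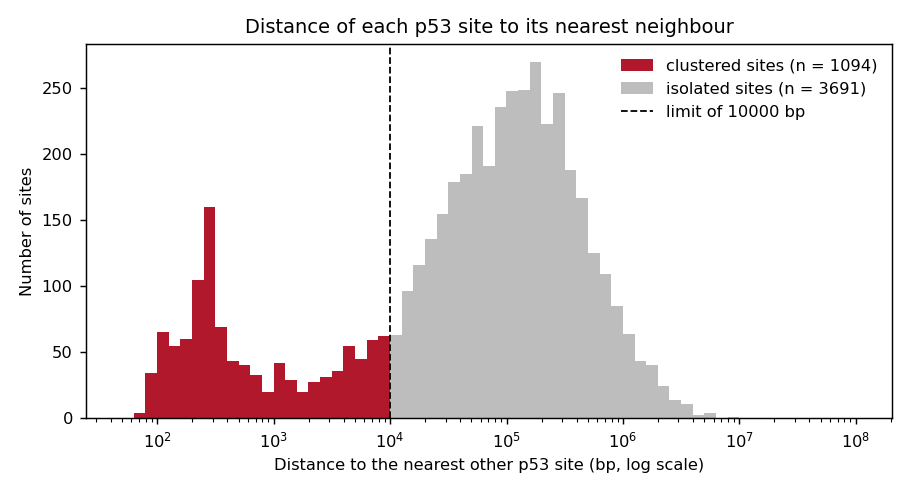
Number of p53 sites (vertical axis) by the distance to the nearest other site in bp (horizontal axis, log scale), for 1094 clustered sites in red and 3691 isolated sites in grey, with the limit of 10000 bp as a dashed line. Of the clustered sites, 595 have a neighbour within 500 bp, and the isolated sites centre on a median of 127147 bp.

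The limit cut through this flank and not through a gap. The 3 pairs just inside it were 9863, 9926 and 9998 bp apart, on chromosomes 19, 13 and 4, with enrichments of 31.0 and 5.30, 77.9 and 20.4, and 25 and 30.0. The 3 pairs just outside it were 10113, 10260 and 10476 bp apart, on chromosomes 11, 8 and 10, with enrichments of 23.1 and 46.3, 65.5 and 21.1, and 25.6 and 29.0. In enrichment the pairs on either side of the limit overlapped.

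Clustered sites occurred on all 20 chromosomes of the list. Their share of the sites was highest on chromosome 11, at 125 of 398 (31.4%), on chromosome 19, at 39 of 130 (30.0%), and on chromosome 8, at 74 of 261 (28.4%). It was lowest on chromosome 14, at 24 of 179 (13.4%), on chromosome X, at 8 of 59 (13.6%), and on chromosome 3, at 33 of 240 (13.8%). Chromosomes 11 and 12 held the clusters of 16 and 15 sites. Without those clusters the share on chromosome 11 was 28.5%, below that on chromosome 19, and the share on chromosome 12 went from 27.3 to 22.4%. With a fixed limit of distance, the share also depends on how densely sites lie on a chromosome. This density was not taken into account.

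A typical clustered site was enriched about as much as a typical isolated one. Enrichment is the authors' ratio for each site, without a stated denominator, and ran from 3.0 to 770 over the list. Its median was 14.9 (binomial 95% interval 13.3 to 16.2) in clustered sites, 15.3 (14.8 to 16.1) in isolated sites and 15.3 over all sites. Of the clustered sites 536 (49.0%) lay above the median of the whole list, beside 50% of all sites. The lower quartiles were also near each other, at 7.45 and 7.91.

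The upper end of the range differed more. The 90th percentile of enrichment was 58.2 in clustered and 46.4 in isolated sites, and the 99th percentile was 199 and 131. Among clustered sites 137 (12.5%) passed 48.9, the 90th percentile of the whole list, beside 10% of all sites and 342 (9.27%) of isolated sites. An enrichment above 100 was listed for 49 clustered sites (4.48%), beside 2.61% of all sites and 2.06% of isolated sites.

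The deposited ranks showed the same upper end. Of the 10 best-ranked sites, 6 were clustered (ranks 1, 5, 6, 7, 9 and 10), where 22.9% of all sites are clustered. These 6 are 0.548% of the clustered sites (95% interval 0.202 to 1.19%). Beside this stand 0.209% of all sites and 0.108% of the isolated ones (0.0295 to 0.277%). Among the 100 best-ranked sites 43 were clustered, which is 3.93% of the clustered sites (95% interval 2.86 to 5.26%), beside 2.09% of all sites and 1.54% of the isolated ones (1.17 to 2.0%). Rank 500 or better was held by 154 clustered sites (14.1%), beside 10.4% of all sites and 9.37% of the isolated ones. At rank 1000 or better the shares were 23.2% and 20.2%, beside 20.9% of all sites. Median ranks were near each other, at 2422 in clustered and 2382 in isolated sites.

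The well-ranked clustered sites had their nearest neighbour mainly at 200 to 1000 bp. Of the 468 sites with a neighbour at more than 200 and up to 1000 bp, 99 (21.2%) held rank 500 or better. The same rank was held by 11 of 220 sites (5.0%) with a neighbour within 200 bp and by 44 of 406 (10.8%) with the nearest neighbour between 1000 and 10000 bp. Over the isolated sites this share moved between 7.88 and 10.6% from one range of distance to the next. Median enrichment was 12.5 for a neighbour within 200 bp, 16.0 for 200 to 1000 bp and 13.9 for 1000 to 10000 bp. These ranges of distance were chosen after the values had been seen. Split at 500 bp in place of this, the share of rank 500 or better was 15.0% of 595 sites with a closer neighbour and 13.0% of 499 sites with a farther one.

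**Figure D2:**
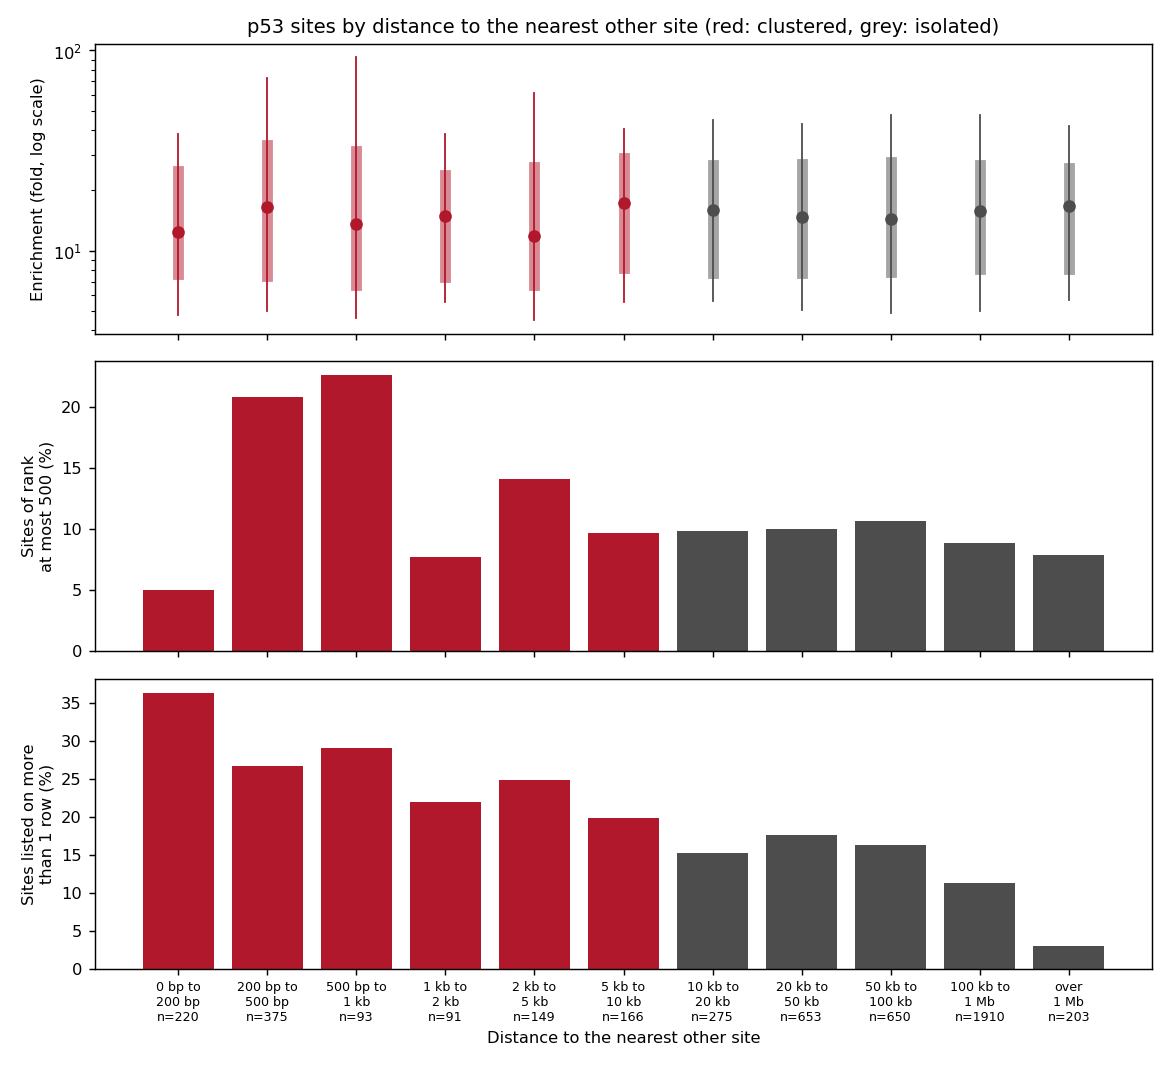
Sites grouped by distance to the nearest other site, with clustered sites in red and isolated sites in grey. The top panel gives the median enrichment (dot), the quartiles (thick bar) and the 10th to 90th percentile (line) on a log scale, the middle panel the percent of sites of rank 500 or better, and the bottom panel the percent listed on more than 1 row. Medians lie between 11.8 and 17.3 throughout, the middle panel peaks at 20.8 and 22.6% between 200 and 1000 bp, and the bottom panel falls from 36.4% within 200 bp to 2.96% beyond 1000000 bp.

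The best-ranked site of the whole list was the middle one of a cluster of 3. At chr8:13549008 the enrichment was 770, and its neighbours, 589 bp before and 452 bp after, had 7.69 and 4.45, less than 1% of the central value. Rank 5 stood at chr17:29227883 with an enrichment of 172, followed within 3565 bp by sites of 20.6, 3.31 and 21.9. The site of rank 7, at chr2:167389616, had 293 and was flanked 591 bp before by a site of 8.43 and 6370 bp after by one of 5.32. Rank 9, at chr15:85690403, had 241 with a site of 10.0 at 503 bp before it. Each of these clusters thus held 1 dominant site and companions at or below 12.8% of its enrichment.

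The cluster of the rank 6 site was different, since it held a further site of high enrichment. At chr10:117154827 the enrichment was 165, and 7709 bp before it, at chr10:117147118, a site of rank 12 had 110. The remaining sites of this cluster, 3858 and 4171 bp after the rank 6 site, had 6.51 and 17.2. Of the 39 clusters with any site among the first 100 ranks, 4 held several. Of all sites 2.09% hold such a rank. That is a share of sites and not of clusters chosen for holding 1 such site, so it gives no expected value here. The 4 clusters, with the cluster of the rank 6 site among them, were picked out after their values were seen. The others were a cluster on chromosome 1 described below, chr7:53857573 and chr7:53861941 with 61.1 and 130 (ranks 55 and 31), and chr2:10925041 and chr2:10925110 with 198 and 54.7 (ranks 91 and 87). At rank 500 or better, 14 of 140 clusters held more than 1 such site. Of all sites 10.4% hold such a rank, again a share per site and not per cluster.

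**Figure D3:**
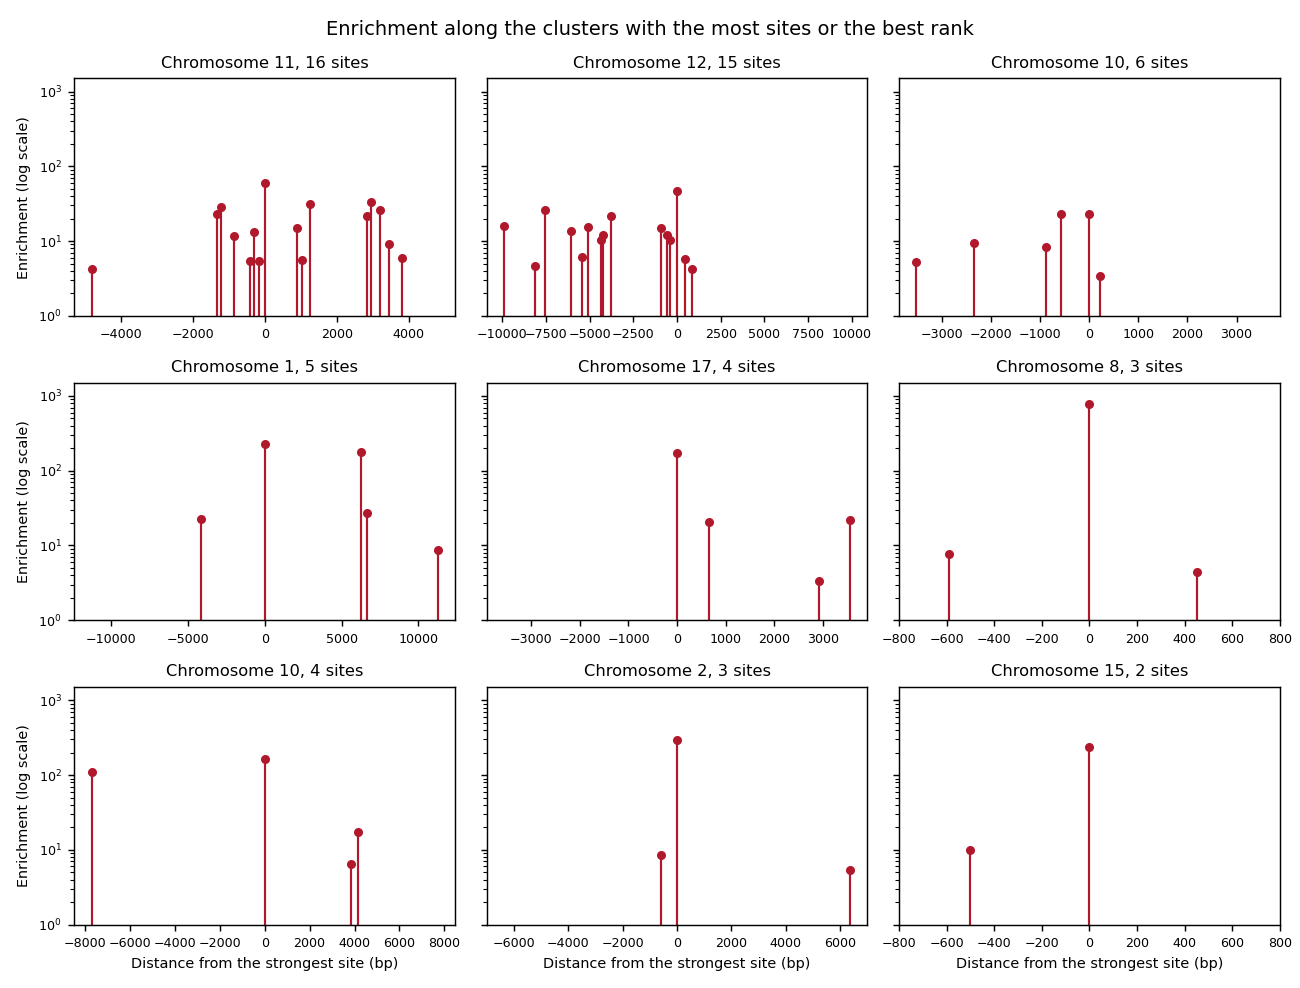
Enrichment (vertical axis, log scale) against distance in bp from the strongest site of the cluster (horizontal axis), 1 panel per cluster, for the 5 clusters with the most sites and the 5 with the best-ranked sites, which share 1 cluster. The clusters of 16 and 15 sites reach 60.6 and 46.1, while the cluster of 3 on chromosome 8 has 1 site at 770 beside sites of 7.69 and 4.45.

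The clusters of 16 and 15 sites held no site among the first 500 ranks. On chr11:69393780-69402408, 16 sites were listed over 8628 bp, and 12 of their 15 spacings were at most 500 bp. Their enrichments ran from 4.21 to 60.6 with a median of 14.1, and 7 of the 16 lay above the median of the whole list. The strongest stood at position 69398586, had rank 717 and was the only one of the 16 above the list's 90th percentile of 48.9. Each of the 16 was listed on 2 rows.

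On chr12:113879091-113889845, 15 sites were listed over 10754 bp, with 8 of 14 spacings at most 500 bp. Enrichments ran from 4.18 to 46.1 with a median of 12.2, and 5 lay above the median of the whole list. The strongest site was at position 113889005, and the best rank in the cluster was 818, at position 113883933. Here 4 sites were listed on 2 rows and 11 on 3 rows. In both clusters sites above and below the list's median were intermixed along the run. The next strongest site reached 54.5% of the strongest on chromosome 11 and 55.8% on chromosome 12. Whether the listed sites of these runs are separate p53 binding events was not tested, and neither run was compared with gene models. Whether either run overlaps DNA that is missing in the p53-/- cells was thus not tested.

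The next clusters by number of sites were unlike each other. The 6 sites between chr10:58755484 and chr10:58759230 had 5.26, 9.45, 8.29, 23.2, 23.3 and 3.42 in order of position, all weaker than the list's 90th percentile. The 5 sites from chr1:137652298 to chr1:137667701, the longest cluster, had 22.8, 227, 177, 26.9 and 8.74, and its strong sites, of ranks 66 and 25, stood 6273 bp apart. The 4-site cluster of highest enrichment was the one on chromosome 17 given above.

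Sites of a cluster usually differed in enrichment. The strongest site of a cluster had a median of 2.61 times the enrichment of the weakest, with quartiles of 1.57 and 5.39 and a range of 1.0 to 173. In clusters of 2 the median ratio was 2.36, with 179 of 401 under 2 and 28 at 10 or more. Both sites lay above the list's median in 101 of these pairs, both at or below it in 113, and 1 on each side in 187. As 50% of all sites lie above that median, such a split is not by itself a trait of clusters.

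The ratio between neighbours in clusters lay above that of neighbours far apart in 3 of 5 ranges of spacing and below it in the other two. The median ratio of the stronger to the weaker of neighbouring sites was 2.44 over 319 pairs up to 500 bp apart, 2.76 over 55 pairs to 1000 bp, 1.80 over 51 pairs to 2000 bp, 2.93 over 88 pairs to 5000 bp and 2.21 over 96 pairs to 10000 bp. For neighbours more than 100000 bp apart (3028 pairs) it was 2.32. Across neighbouring pairs, the Spearman correlation of the enrichments was -0.05 up to 500 bp, -0.17 to 1000 bp, 0.13 to 2000 bp, 0.06 to 5000 bp and 0.05 to 10000 bp. Beyond 100000 bp it was 0.01. These correlations are across sites of the same libraries and are given as a description. In no range of spacing was the correlation stronger than -0.17.

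The largest ratios in clusters with a site above the list's 90th percentile belonged, by construction, to strong sites with weak companions. After the cluster of chr8:13549008, at a ratio of 173, came chr13:55974185, of rank 13, with 418 beside 4.08 at 268 bp after it. Next was chr4:73877097, of rank 10, with 394 beside 6.02 at 446 bp after it. The cluster of chr2:167389616 followed, and then chr11:120091359, with 184 between sites of 4.52 and 3.47 at 644 bp before and 258 bp after. All 5 had a companion within 1000 bp.

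The smallest ratios in such clusters were found in pairs of similar sites. On chromosome 7, positions 119443152 and 119443280, 128 bp apart, had 59.6 and 51.9. On chromosome 9, positions 96700765 and 96700974, 209 bp apart, had 65.8 and 95.5, with ranks of 285 and 28. The others were chr12:54887037 and chr12:54888163 with 57.6 and 38.8, chr16:29942432 and chr16:29946571 with 70.3 and 44.8, and chr2:181145037 and chr2:181145129 with 57.5 and 35.4. Their spacings were 1126, 4139 and 92 bp, so similar pairs were found at both short and long spacing.

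The 5 closest pairs of the list were 69, 77, 81, 81 and 84 bp apart. The closest was the pair on chromosome 2 at position 10925041, named above. The others were chr19:7270148 and chr19:7270225 with 4.62 and 10.5, chr4:56048997 and chr4:56049078 with 3.75 and 4.78, chr13:100411471 and chr13:100411552 with 18.8 and 9.08, and chr5:39901677 and chr5:39901761 with 10.7 and 27.9. Apart from the first, no site of these pairs ranked better than 2102.

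Around the 38 clusters whose strongest site was among the first 100 ranks, the 59 other sites had a median enrichment of 10.9, and a median of 10.4% of the strongest site of their cluster. A companion is weaker than the strongest site by construction. Of the 59, 33 lay within 1000 bp of the strongest site, 24 before and 35 after it in the direction of the coordinates. Over all clusters the 609 other sites lay before the strongest in 302 and after it in 307 cases. In the 70 clusters of 3, the strongest site was the first in 25, the middle one in 22 and the last in 23. Over all clusters the counts on both sides were thus close to each other, while around the first 100 ranks more companions lay after the strongest site than before it.

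**Figure D4:**
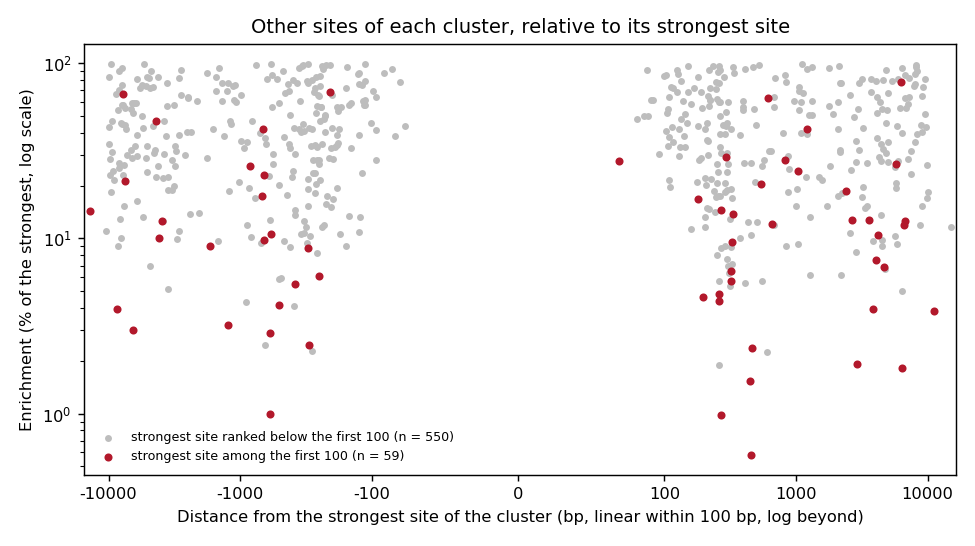
Each point is 1 of the 609 sites that are not the strongest of their cluster, by its distance in bp from the strongest site (horizontal axis, log scale beyond 100 bp on both sides) and its enrichment as a percent of the strongest (vertical axis, log scale). Red points, 59 in all, belong to clusters whose strongest site is among the first 100 ranks, and have a median of 10.4%.

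The deposited score, whose order the ranks follow at all but 6 of 4784 steps between neighbouring ranks, had the same shape against enrichment in clustered and isolated sites. Scores under 60 were held only by sites with an enrichment of at most 9.33. They were held by 197 clustered sites (18.0%), beside 16.8% of all sites and 16.4% of isolated ones. At enrichments of 20 and above, many sites had a score within 1% of the lowest seen at their enrichment or any higher one. Such sites are taken as lying on 1 curve, and a site that sets the lowest score counts by construction. These were 220 clustered sites (20.1%), beside 21.3% of all sites and 21.6% of isolated ones. Where sites follow this curve, enrichment and score carry the same information. What the curve stands for is not given in the sources used here, and the boundaries of 60 and 20 were set after the values had been seen. The Spearman correlation of rank and enrichment was -0.85 across clustered and -0.79 across isolated sites.

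**Figure D5:**
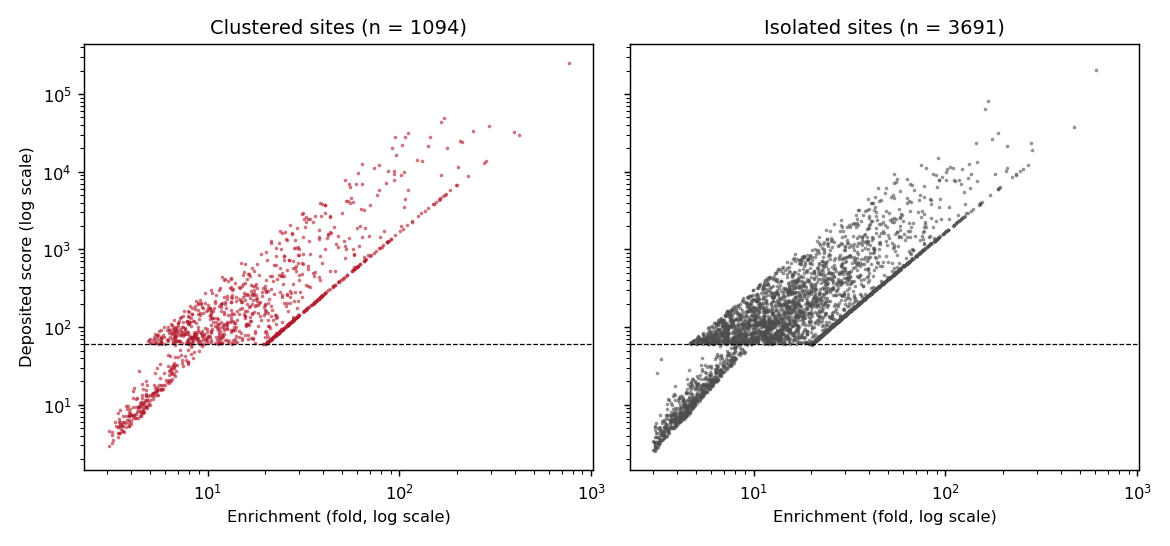
Deposited score (vertical axis, log scale) against enrichment (horizontal axis, log scale) for each clustered site (left, red, n = 1094) and isolated site (right, grey, n = 3691), with a dashed line at a score of 60. Both panels show the band of low scores under the line, held by 18.0 and 16.4% of the sites, and the straight lower edge from an enrichment of 20 on, held by 20.1 and 21.6%.

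Clustered sites were repeated more often in the list as deposited. The 5873 lines held 1088 exact repeats of another line, with no column that tells them apart, and these were dropped before sites were chosen. More than 1 row was held by 297 clustered sites (27.1%, 95% interval 24.5 to 29.9%), beside 16.3% of all sites and 484 isolated sites (13.1%, 12.0 to 14.2%). More than 2 rows were held by 84 clustered sites (7.68%), beside 4.08% of all sites and 3.01% of isolated ones. The share on more than 1 row was 36.4% with a neighbour within 200 bp and between 19.9 and 29.0% in the other ranges up to 10000 bp. It was 15.3% at 10000 to 20000 bp, 17.6% at 20000 to 50000 bp and 2.96% beyond 1000000 bp.

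In 353 of 485 clusters every site was listed on 1 row. In the 132 clusters with some repeated site, all sites had the same number of rows in 100 and unequal numbers in 32. The most rows were found at the pair chr18:37986130 and chr18:37986357, 227 bp apart, each on 22 rows, with enrichments of 13.4 and 26.5. The pair chr5:138606478 and chr5:138611297, with 27.5 and 12.6, was on 7 rows each, and no isolated site was on more than 6. These pairs were picked out after their values were seen. What a repeated line stands for is not given in the sources used here.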

How the data were processed

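p53 sites were measured by ChIP-seq in doxorubicin-treated MEFs. The submitters' processing notes name the build mm9 and DESeq, without roles. Which program called the peaks, at which threshold, and how the background and p53-/- libraries were used is not given in the sources. Per the file headers, enrichment is a ratio; what it is relative to is not stated. The rank is a deposited score from 1 to 4785. A further deposited column carries the name of a -log10 q value and reaches 248643. How it was computed is not stated, and it was treated as a score. The deposited RNA values, 1 per gene, are a score close to log2, and served only to check the cells. Repeated lines were dropped, and sites were clustered at 10000 bp in Python 3.11.15 with pandas 2.3.3, numpy 2.4.6 and scipy 1.17.1. The clustering code was run on simulated positions with no spacing between 10000 and 20000 bp. The list has 170 neighbouring pairs in that range, so the simulation only checks the code. Intervals are exact binomial ones (95%), also for medians by order statistics. The ChIP depth is unknown. No test across sites was made.

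Clusters named are the 5 with the most sites, the 5 of best rank, the 5 with the largest and the 5 with the smallest ratio of enrichments among those with a site above the 90th percentile, the 5 closest pairs and the 3 pairs on each side of the limit. The members and lists were chosen with earlier results of these data known. Alternatives were limits of 5000 and 20000 bp, the 2392 best-ranked sites alone, and sites within 500 bp merged. Leaving out the 2 largest clusters or scores under 60 was added after seeing the data. No gene or sequence was assigned, as the annotation at hand is on GRCm38.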

Additional observations from a re-analysis of the deposited data

How the results depend on the processing

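Leaving out the 2 largest clusters, added after seeing the data, kept all 9 summary values within their intervals or within 1.5 times. With a limit of 5000 bp the clustered share was 19.4% and the median spacing 319 bp, and with 20000 bp they were 28.6% and 1171 bp. With sites within 500 bp merged into 1, there were 547 clustered sites in 258 clusters. Their share was 12.2% and their median spacing 3210 bp, while the median enrichments remained within their intervals. Each merged site took the highest enrichment and the highest number of rows of its members, so its values are maxima. The shares of clustered and isolated sites at the upper end of enrichment and rank are not given for merged sites. Among the 2392 best-ranked sites, 305 sites (12.8%) formed 143 clusters. Their median enrichment was 28.1 against 26.3 for isolated sites, 52.1% lay above the median of these sites, and the median ratio of strongest to weakest was 2.31. Without scores under 60, added after seeing the data, the share was 19.5% and the median enrichments were 20.1 in clustered and 19.2 in isolated sites. In these last 2 settings the clustered median was above the isolated one, in contrast to the full list (14.9 against 15.3). Fewer and stronger sites entered both by construction. The share of clustered sites on more than 1 row stayed within its interval in all 6 settings. Pearson correlations of log2 enrichment stayed within the intervals of the Spearman values in all 8 ranges of spacing. No paired analysis was possible because the results come from 1 list and from no test. With 1 list and an unknown depth, the error of a single enrichment cannot be given.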
